A study of Mus musculus with 6 samples.

Results

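The 35 genes described here carry a fatty acid from the blood vessel to the mitochondrial respiratory chain, or hold it in a lipid droplet on the way. They were taken by name from the 17145 genes of a table of UMI counts (unique molecular identifiers, which let copies of a single cDNA molecule be counted once), by their known roles in fatty acid use, with no threshold on a measured value. RNA came from fresh-frozen heart sections of FS6KD mice by photo-isolation chemistry, in which only cDNA of areas lit with ultraviolet light is amplified. Areas were chosen by anti-Atf3 immunostaining, with 3 libraries of Atf3 high and 3 of Atf3 low areas. The authors describe both as parts of Atf3-positive clusters, so Atf3 low does not stand for Atf3-negative heart muscle. The comparison asks how these genes differ between cardiac regions with more and less Atf3 protein. All 6 libraries carry the *Ndufs6* knockdown, from a gene trap that lowers this complex I subunit mainly in the heart, on a mixed C57BL/6J and 129/Ola background. The labels give heart, cardiomyocytes and female throughout and name no drug, no age and no wild-type group. They do not say whether a high and a low library of the same number come from the same mouse.

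The adult heart draws most of its energy from fatty acids. Lipoprotein lipase frees them from circulating triglyceride, carriers bring them into the cardiomyocyte, and acyl-CoA synthetases activate them. The carnitine shuttle moves the acyl group into the matrix, where each turn of beta oxidation removes a 2-carbon unit as acetyl-CoA and passes electrons to NAD+ and to the electron transfer flavoprotein (ETF). Malonyl-CoA, made by acetyl-CoA carboxylase, closes the shuttle, and lipid droplets hold what is not burned. Many of these genes are known targets of PPAR alpha and the estrogen-related receptors (ERR).

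Sequence is shown first where it bears on the set. Atf3 belongs to a family that binds ATF/CRE and AP-1 elements, so windows of 300 bases (250 before and 50 after the start, RefSeq promoters, GRCm38.p6) were read for 27 of the 35 genes, 31 windows in all (the table does not list *Lpl*, *Acot13*, *Cpt1b*, *Crat*, *Acaa2*, *Acat1*, *Decr1* or *Dgat2*). On either strand, the CRE palindrome TGACGTCA was in 0 of the 31 windows, against 1.79% of 32851 promoters, and the AP-1 motif TGANTCA was in 2 (6.45%), against 7.81% of all. The extended ERR motif TNAAGGTCA was in 0, against 1.28%, and the DR1 repeat bound by PPAR in 0, against 0.0396%. These motifs do not contain one another, and the absence of letters from so short a window says nothing of what binds there. The AP-1 matches lay in *Acadvl*, 16 bases after the start, and in *Plin5*, 11 bases before it. The *Plin5* match is shown because it is the only such match in a member that was counted. It is on the minus strand at chr17:56117543-56117569, within 27 bases, with the motif in capitals, and it falls inside the gene as GENCODE places its ends.
Plin5 AP-1 match: gacggagggcTGACTCAggtgggagcg

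*Hadha* and *Hadhb*, the alpha and beta subunits of the mitochondrial trifunctional protein, lie head to head on chromosome 5 and are the closest neighbours among the 35. *Hadha* runs on the minus strand from 30118304 to 30155162 and *Hadhb* on the plus strand from 30155248 to 30184593 (GRCm38). The 85 bases between them, chr5:30155163-30155247 on the plus strand, are shown because the RNAs read from its ends are compared below. They have a GC content of 69.4%, and capitals mark 2 copies of the GC box GGGCGG, a motif found in 67.7% of the 31 windows and in 35.7% of all promoters.
Hadha to Hadhb: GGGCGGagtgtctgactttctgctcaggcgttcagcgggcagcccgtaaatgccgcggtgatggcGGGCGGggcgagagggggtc

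Libraries held between 81117 and 210588 UMIs, so 3 UMIs, the limit that a count of 0 allows, equal 14.0 to 40.9 CPM (counting error only). Values in CPM are scaled by TMM over the 7665 genes with at least 10 UMIs, all of which were tested with the quasi-likelihood test of edgeR and adjusted by Benjamini-Hochberg. A log2 fold change is Atf3 high minus Atf3 low. The RNA does not follow the staining closely: *Atf3* had UMI counts of 50, 7 and 25 in replicates 1, 2 and 3 of the Atf3 high areas and of 35, 0 and 8 in the low areas. *Ndufs6* had 2, 0 and 3 against 0, 0 and 0, with no wild-type library to set them against. Atf3 high replicate 2 stands apart, with 16 UMIs of Y-linked genes and 0 of *Xist* against the label female. The other libraries had 0 or 1 Y-linked UMIs and 3 to 26 of *Xist*, and Atf3 low replicate 2 had 13. Atf3 high replicate 2 is also the shallowest, at 81117 UMIs, though Atf3 low replicate 3 is close to it at 81917. Values without Atf3 high replicate 2 are given below for fatty acid genes where results rest on it, and not for the cell type markers.

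Cardiomyocyte markers moved with the groups and are given before the fatty acid genes. Of the 10, *Mb* was not analysed here, and the other 9 all had lower point estimates in Atf3 high (median log2 fold change −0.72). Among these 9, 5 were lower at an unadjusted p under 0.05, beside 2.24% of all genes tested. *Myh6*, alpha myosin heavy chain, passed adjustment (−1.81, SE 0.32, edgeR adjusted p = 0.00512). In 3 of the 9 every Atf3 high library lay under every Atf3 low library, beside 3.89% of all genes. The list was uneven: *Tnnt2* (−0.40), *Tnni3* (−0.39) and *Ttn* (−0.06) had the smallest folds, and their groups overlapped. The summed level of the markers was 24329 to 44838 CPM in Atf3 high and 48646 to 61832 CPM in Atf3 low. All 8 fibroblast markers had higher point estimates in Atf3 high (median 1.03), with a summed level of 1113 to 5213 CPM against 531 to 2588 CPM. Of these 8, 3 were higher at an unadjusted p under 0.05, beside 3.55% of all genes tested, and in 0 were the groups without overlap. The endothelial list, which matters for *Cd36*, had 8 of 8 markers tested, a median of 0.19 and a summed level of 1231 to 1514 CPM against 926 to 1604 CPM. Among 9 adipocyte markers, *Adipoq*, *Plin1*, *Cidec*, *Cfd*, *Retn* and *Lep* were not analysed here, *Car3* had 3, 0 and 0 UMIs against 4, 0 and 0, and *Thrsp* had between 0 and 6. *Fabp4*, which endothelial cells also express, made up nearly all of the summed adipocyte level of 483 to 874 CPM in Atf3 high and 613 to 970 CPM in Atf3 low. The part of these cell types in the values below was not tested, and fewer cardiomyocytes in an area cannot be told apart from less RNA per cardiomyocyte.

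No gene of the set passed an adjusted p of 0.05 (smallest adjusted p = 0.649, for *Lpl*, by edgeR). By the same test, 0.0913% of all genes tested were called. Of the 35, *Cpt1b* and *Acadvl* were not analysed here, *Fabp3* and *Cpt1a* were under 10 UMIs, and 31 were tested. At an unadjusted p under 0.05, 1 of the 31 (3.23%, *Lpl*) was lower in Atf3 high and 0 were higher, beside 2.24% and 3.55% of all genes. Among the 425 genes at or above the median level of the set, 247 CPM, 6.82% were lower by that measure. The fold change was below 0 for 21 of 31 (67.7%), beside 44.8% of all genes, with a median of −0.44 against 0.11, and for 20 with library size scaling and 24 with RLE size factors. Abundant genes as a whole also had a median below 0: those 425 genes had a median of −0.13 with 59.8% below 0. Without Atf3 high replicate 2 the set's median was −0.28 with 22 of 31 below 0 and 0 at an unadjusted p under 0.05, and without replicate 3 it was −0.68 with 30 of 31 below 0 and 4. In 5 of 31 (16.1%) every Atf3 high library lay under every Atf3 low library, beside 3.89% of all genes and 9.41% of the 425 abundant ones. In the opposite direction the count was 0 of 31, beside 7.07% of all genes. Without Atf3 high replicate 2, 5 of the 31 were apart and lower, beside 5.61% of all genes. The comparisons with the 425 abundant genes are not matched by level. The set also holds members under 247 CPM, *Slc27a1* and *Eci2* with groups apart among them.

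**Figure D1:**
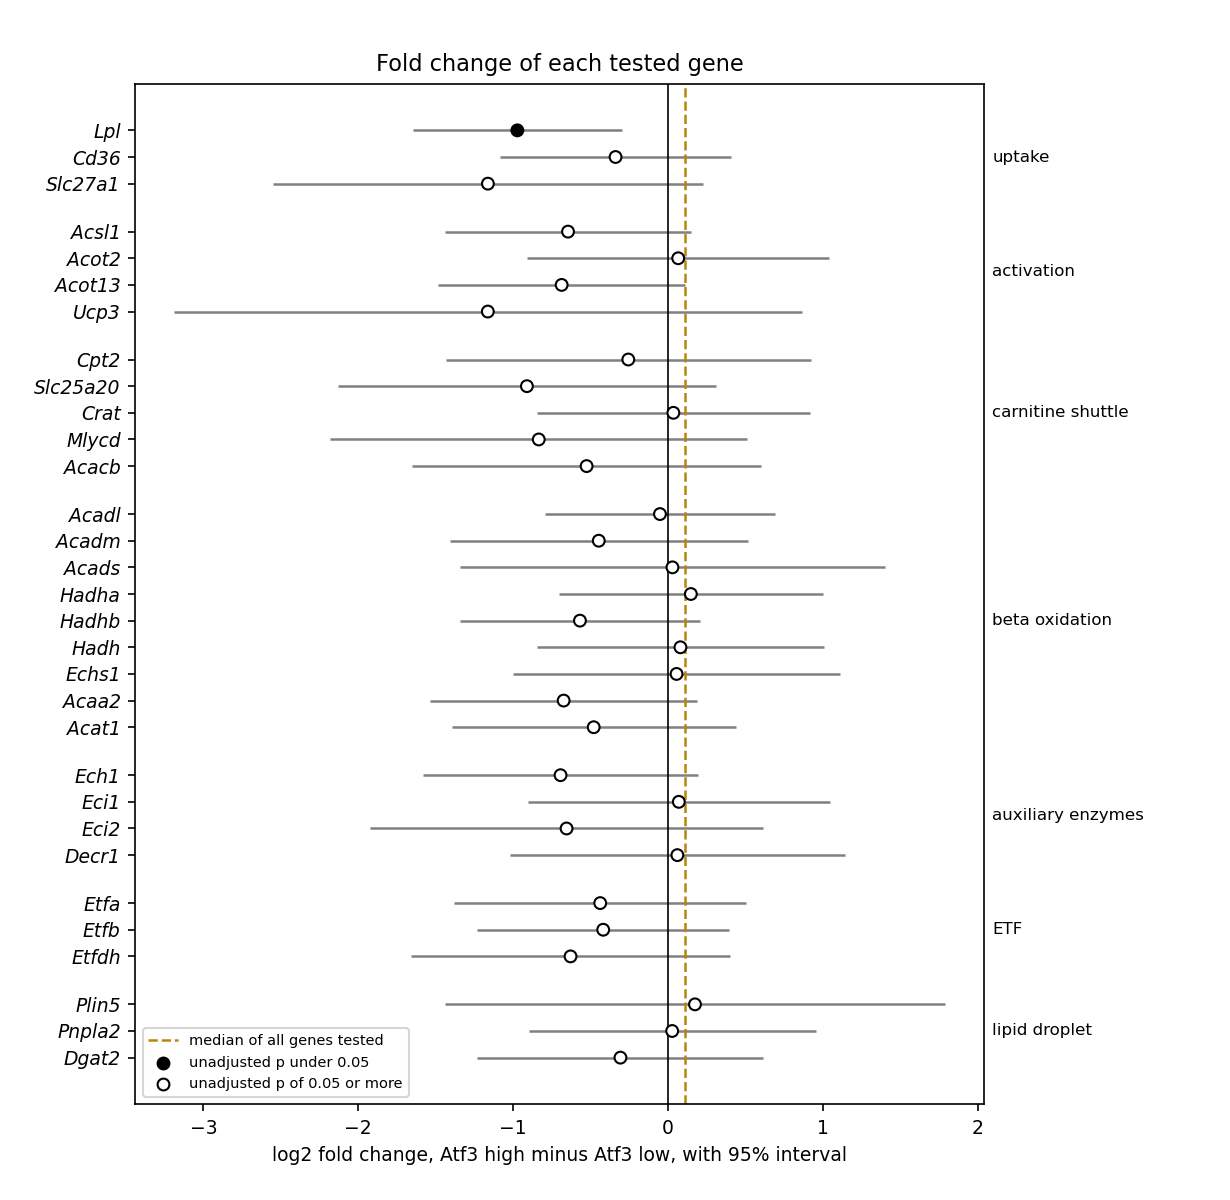
Points give the log2 fold change of each of the 31 tested genes, Atf3 high minus Atf3 low, lines the 95% interval from the edgeR fit, and the dashed line the median of all 7665 genes, 0.11. Only the interval of *Lpl* stays below 0, and 21 points lie to the left of 0.

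All 3 uptake genes tested had point estimates below 0 in Atf3 high, and *Lpl* was the most abundant gene of the set, with 21.7% to 42.0% of its UMIs. *Lpl* (chr8:68880491-68907448, plus strand) encodes the lipase that cardiomyocytes secrete and that works on the capillary wall. Its level was 2967, 1786 and 5231 CPM in Atf3 high replicates 1, 2 and 3 and 7709, 4980 and 6959 CPM in Atf3 low, from 148 to 1144 UMIs per library. Atf3 high replicate 2 was lowest, and replicate 3 lay just above the lowest Atf3 low library, so the groups overlapped. The means were 3328 ± 1750 and 6550 ± 1410 CPM (SD, n = 3 libraries each), a log2 fold change of −0.97 (SE 0.34, 95% interval −1.65 to −0.30, edgeR unadjusted p = 0.00589, adjusted p = 0.649). Leaving out Atf3 high replicate 2 gave −0.69 (edgeR unadjusted p = 0.0535, adjusted p = 1) and leaving out replicate 3 gave −1.46 (adjusted p = 0.132). Over all alternatives its adjusted p ran from 0.0329 to 1. The lowest, from a fit with the replicate number as a block, was the only one past the threshold. That fit treats the libraries numbered 2 as a pair, which their Y-linked and *Xist* counts go against.

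*Slc27a1*, the fatty acid transport protein FATP1, had 40.6, 60.3 and 37.3 CPM in Atf3 high areas and 87.6, 83.4 and 136 CPM in the low areas. The groups did not overlap, but the counts were 5 to 13 UMIs per library and the interval of its fold change was wide (−1.16, 95% interval −2.55 to 0.23, edgeR adjusted p = 0.964). *Cd36*, the fatty acid translocase of cardiomyocytes and capillary endothelium, was at 767, 531 and 936 CPM against 964, 926 and 953 CPM. The 3 Atf3 low values were almost equal, and Atf3 high replicate 3 lay among them (−0.34, SE 0.37). *Fabp3*, the cytosolic fatty acid binding protein of heart muscle, is normally an abundant transcript, yet it was listed with 1, 0 and 3 UMIs against 0, 2 and 0. Its transcript is 99.3% identical over 402 bases to the processed pseudogene *Fabp3-ps1*. How the counting treated reads that fit both is not given in the sources used here. Whether this lowered the count of *Fabp3* was not tested, and its level is not read from these counts.

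**Figure D2:**
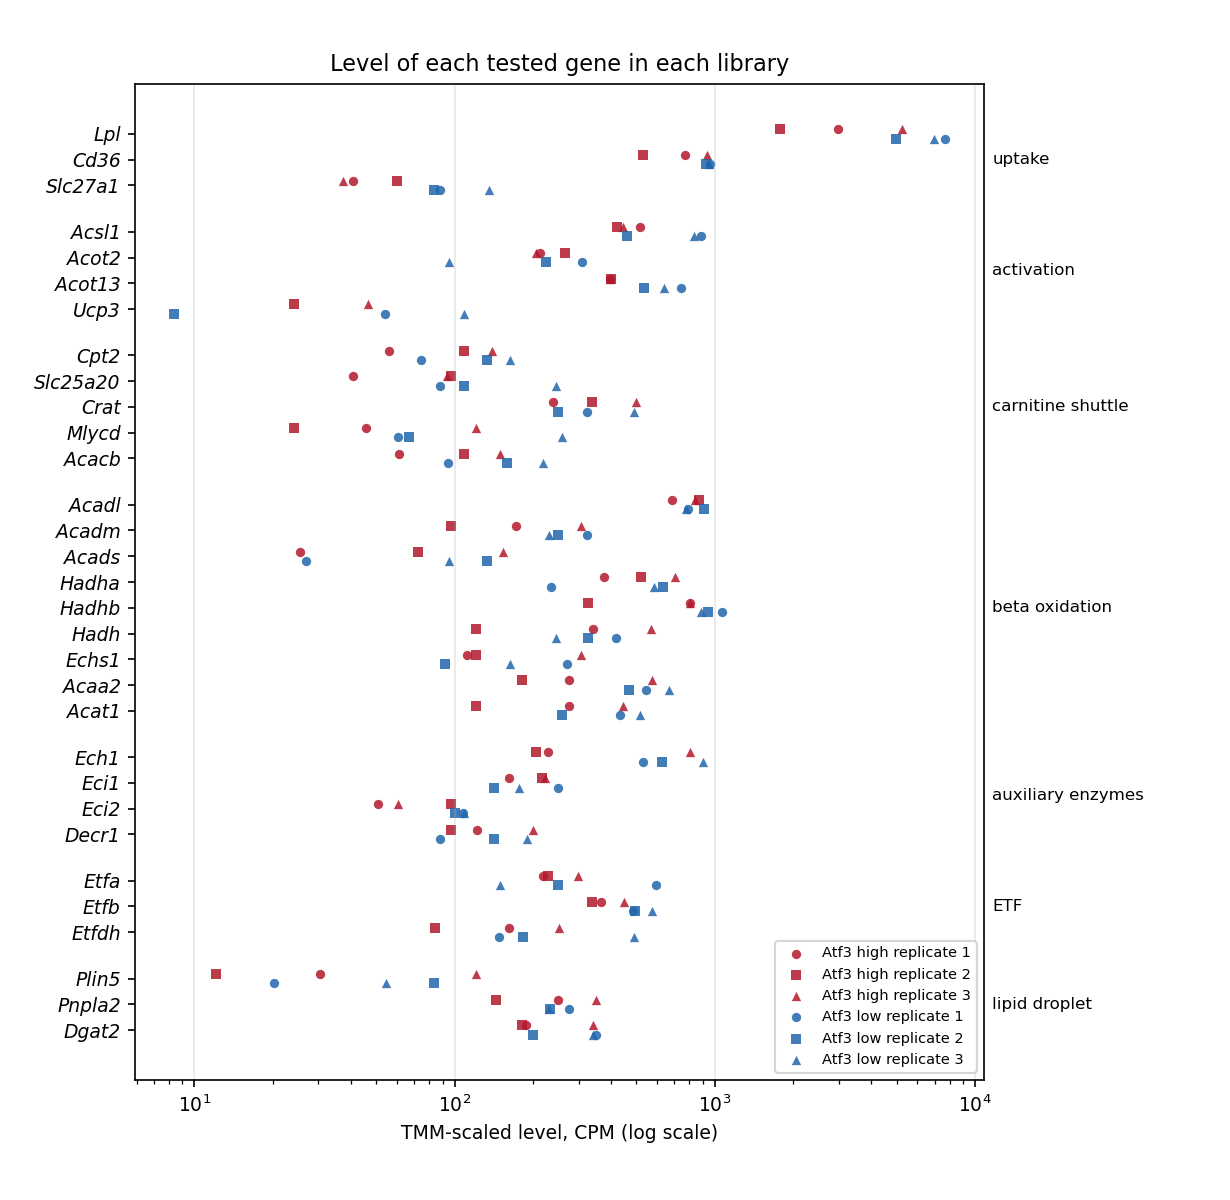
Each point is 1 library, red for Atf3 high and blue for Atf3 low, with TMM-scaled CPM on a log axis; the 31 tested genes are ordered by step, and the 0 of *Ucp3* in Atf3 high replicate 1 is not drawn. Red lies wholly to the left of blue for *Slc27a1*, *Acot13*, *Hadhb*, *Eci2* and *Etfb*.

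Of 4 genes that activate fatty acids or turn over the acyl-CoA pool, 3 had point estimates below 0. *Acsl1*, the main long-chain acyl-CoA synthetase of the heart, was at 518, 422 and 443 CPM in Atf3 high areas and 883, 459 and 831 CPM in the low areas. Only Atf3 low replicate 2 came down to the Atf3 high range, and the fold change was −0.64 (SE 0.40, edgeR adjusted p = 0.964). *Acot13*, a mitochondrial thioesterase that releases free fatty acid from acyl-CoA, had 396, 398 and 396 CPM in Atf3 high areas and 741, 534 and 640 CPM in the low areas. Its groups were apart, at −0.69 (SE 0.40, edgeR unadjusted p = 0.0895, adjusted p = 0.964). The Atf3 high values came from 78, 33 and 85 UMIs and lie closer together than the sampling error of such counts, so their closeness is no measure of precision. *Acot2*, a matrix thioesterase, showed no such separation, at 213, 266 and 205 CPM against 310, 225 and 95.3 CPM (0.07, SE 0.48). It shares 95.1% identity over 1274 bases with *Acot1*, which had 10 UMIs, and summed with it gave 0.01. *Ucp3*, an inner membrane carrier that rises with fatty acid supply, had 0, 2 and 10 UMIs against 8, 1 and 8, too few to place it (−1.16, 95% interval −3.19 to 0.86).

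The entry enzyme of the carnitine shuttle could not be followed. *Cpt1b*, the muscle form of carnitine palmitoyltransferase 1, was not analysed here, and 2744 of its 3372 annotated exon bases are shared on the same strand with *Gm44502*. *Cpt1a*, the liver form, had 0, 2 and 4 UMIs in Atf3 high areas and 1, 1 and 1 in the low areas. Of the 5 shuttle genes that were tested, 4 had point estimates below 0, and 0 had groups apart. *Crat*, carnitine acetyltransferase, which buffers acetyl-CoA as acetylcarnitine, was the most abundant of them, at 239, 338 and 498 CPM against 324, 250 and 490 CPM. Its libraries interleaved fully (0.04, SE 0.44). *Slc25a20*, the carnitine-acylcarnitine translocase, was at 40.6, 96.5 and 93.2 CPM against 87.6, 108 and 245 CPM (−0.91, SE 0.60), and gave −0.39 without Atf3 low replicate 3 and −0.59 without Atf3 high replicate 1. *Cpt2*, which returns the acyl group to CoA in the matrix, gave −0.26 (SE 0.58). *Acacb*, which makes the malonyl-CoA that inhibits the shuttle, gave −0.52 (SE 0.56), and *Mlycd*, which degrades it, gave −0.83 (SE 0.67). The highest *Mlycd* value, 259 CPM in Atf3 low replicate 3, set its direction: without that library the fold change was 0.08.

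Beta oxidation enzymes were split, with 5 of 9 tested below 0, a median of −0.05 and 1 with groups apart. *Acadvl*, the very long-chain dehydrogenase, was not analysed here. *Acadl*, the long-chain dehydrogenase and the most abundant gene of this step, was at 686, 869 and 838 CPM in Atf3 high areas and 788, 909 and 776 CPM in the low areas. All 6 libraries lay within 686 to 909 CPM, for a fold change of −0.05 (95% interval −0.79 to 0.69), and library size scaling turned it to 0.15. *Acadm*, for medium chains, gave −0.45 (SE 0.48) and *Acads*, for short chains, 0.03 (SE 0.68), the latter on 4 to 33 UMIs per library.

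*Hadhb*, which holds the thiolase of the trifunctional protein, had 803, 326 and 806 CPM in Atf3 high areas and 1071, 943 and 885 CPM in the low areas. The groups were apart, with Atf3 high replicate 2 far under the rest (−0.57, SE 0.39, edgeR adjusted p = 0.965), and without that library the fold change was −0.28. *Hadha*, which holds the hydratase and dehydrogenase, had 376, 519 and 703 CPM against 236, 634 and 586 CPM, so Atf3 low replicate 1 was its lowest library (0.15, SE 0.42). The share of *Hadha* in the UMIs of the pair was 31.9%, 61.4% and 46.6% in Atf3 high areas and 18.04%, 40.2% and 39.8% in the low areas. These shares averaged 46.6% ± 14.8 and 32.7% ± 12.7 (SD, n = 3 libraries each). The difference of 14.0 percentage points was not larger than the spread (two-sided exact permutation test, p = 0.4, adjusted over 2 shares p = 0.7), in a design whose smallest possible p is 0.1. It was 21.3 points when Atf3 high replicate 1 was left out, 6.56 when Atf3 high replicate 2 was, and 6.63 when Atf3 low replicate 1 was. *Hadhb* has a pseudogene, *Gm13910*, of 99.8% identity that took 1 UMI.

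Downstream in the spiral, *Hadh*, the short-chain hydroxyacyl-CoA dehydrogenase, gave 0.08 (SE 0.46) and *Echs1*, the short-chain hydratase, 0.06 (SE 0.52). *Acaa2*, a mitochondrial thiolase, was at 274, 181 and 573 CPM against 546, 467 and 667 CPM. Its Atf3 high replicate 3 alone reached into the Atf3 low range (−0.67, SE 0.43, edgeR adjusted p = 0.964), and without that library the fold change was −1.27 (edgeR unadjusted p = 0.00866, adjusted p = 0.453). Without Atf3 high replicate 2 it was −0.41. *Acat1*, which acts on acetoacetyl-CoA and in ketone use, gave −0.48 (SE 0.45).

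Auxiliary enzymes let the spiral pass double bonds, and 2 of the 4 had point estimates below 0. *Ech1*, a dienoyl-CoA isomerase and the most abundant of the 4, was at 229, 205 and 806 CPM in Atf3 high areas and 532, 626 and 899 CPM in the low areas. Atf3 high replicates 1 and 2 were well below every Atf3 low library and replicate 3 was not (−0.69, SE 0.44, edgeR adjusted p = 0.964). Leaving out replicate 3 gave −1.65 (edgeR unadjusted p = 0.00102, adjusted p = 0.24), while leaving out Atf3 high replicate 1 or 2 gave −0.41 and leaving out Atf3 low replicate 3 gave −0.46. *Eci2*, an enoyl-CoA isomerase of peroxisomes and mitochondria, had 50.8, 96.5 and 60.6 CPM against 108, 100 and 109 CPM. These groups were apart, but narrowly and on 8 to 16 UMIs per library (−0.65, SE 0.63). *Eci1*, the mitochondrial isomerase, gave 0.07 (SE 0.48) and *Decr1*, the dienoyl-CoA reductase, 0.06 (SE 0.54).

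**Figure D3:**
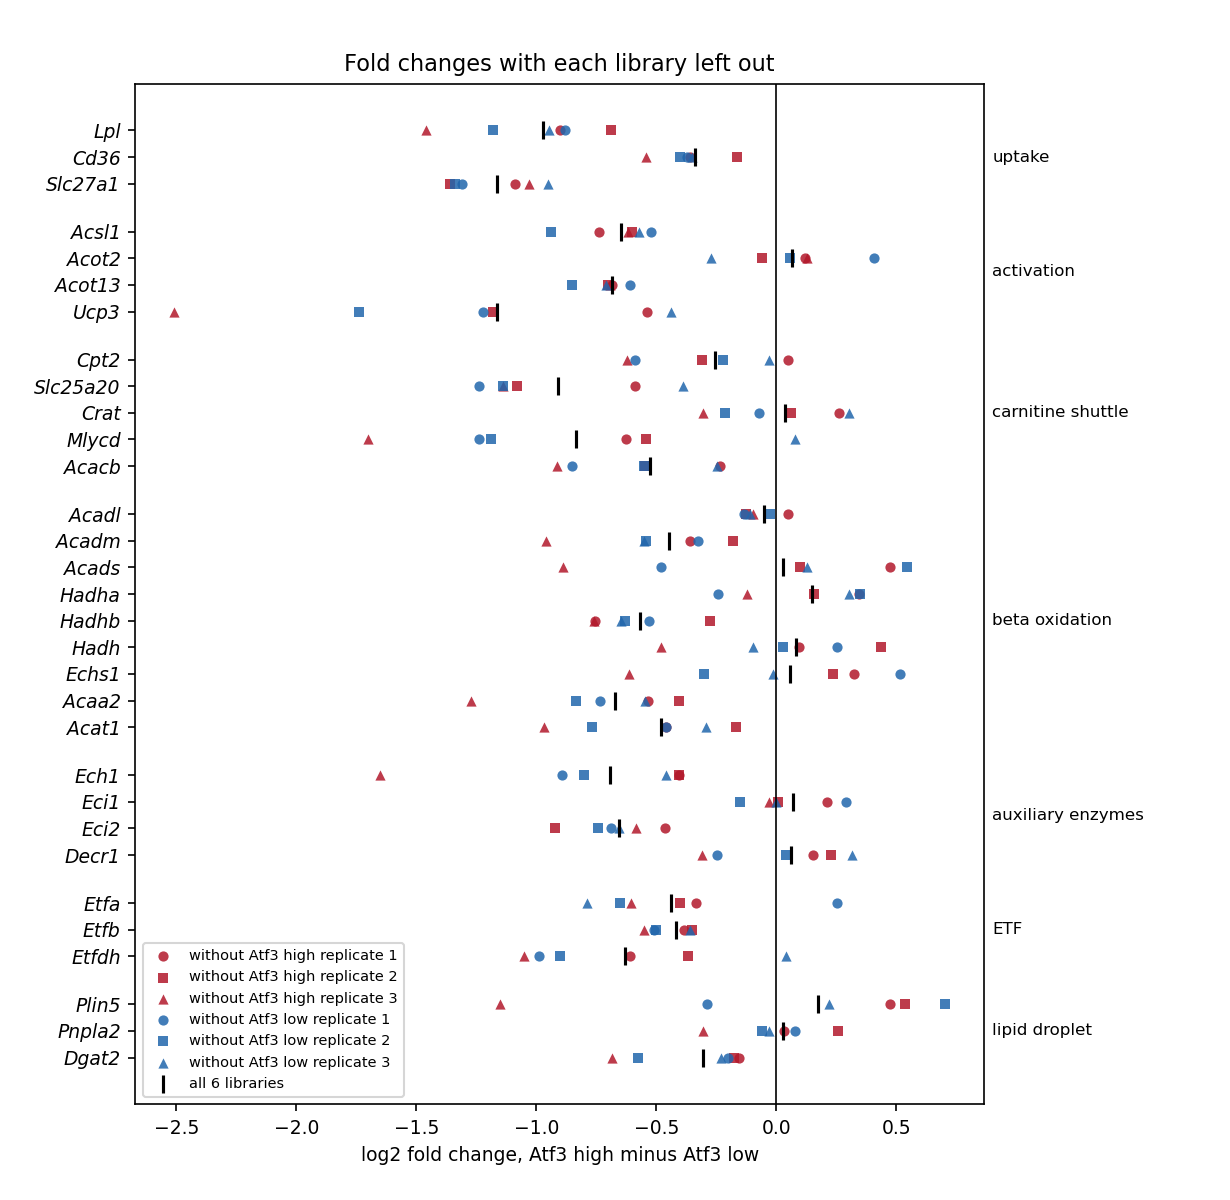
Each marker is the log2 fold change after leaving out 1 library, coloured by the group of that library, and the black tick is the value with all 6. The red triangle, without Atf3 high replicate 3, lies below 0 for 30 of 31 genes, furthest from the tick for *Ucp3* and *Plin5*.

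The 3 genes that hand electrons from acyl-CoA dehydrogenases to ubiquinone all had point estimates below 0 (median −0.44). *Etfb*, the beta subunit of ETF, was at 366, 338 and 447 CPM in Atf3 high areas and 485, 492 and 572 CPM in the low areas. The groups were apart with a small spread (384 ± 56.8 against 516 ± 48.2 CPM, SD, n = 3 libraries each), for a fold change of −0.42 (SE 0.40, edgeR adjusted p = 0.996). It shares 678 of 1164 exon bases on the same strand with *Gm45233* and *Mir7051*. *Etfa*, the alpha subunit, had 218, 229 and 298 CPM against 593, 250 and 150 CPM, so the Atf3 low libraries held both its highest and its lowest value. Its share of the UMIs of the pair was 39.3% ± 1.64 in Atf3 high areas and 36.5% ± 17.3 in the low areas (SD, n = 3 libraries each), which did not differ beyond the spread (exact permutation p = 0.7). Pooling the UMIs within a group turned the difference from 2.78 to −3.58 percentage points. *Etfdh*, the ETF-ubiquinone oxidoreductase, gave −0.63 (SE 0.51) with all 6 libraries and 0.04 without Atf3 low replicate 3.

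Lipid droplet genes showed no common direction, with 1 of 3 below 0 and a median of 0.03. *Dgat2*, which adds the last acyl group of triglyceride and was the most abundant of the 3, was at 188, 181 and 340.0 CPM against 350.4, 200.2 and 340.5 CPM (−0.31, SE 0.46). *Pnpla2*, adipose triglyceride lipase, which starts the breakdown of stored triglyceride, had means of 248 ± 102 and 247 ± 25.3 CPM (SD, n = 3 libraries each; 0.03, SE 0.46). *Plin5*, which tethers droplets to mitochondria, had 6, 1 and 26 UMIs in Atf3 high areas and 3, 10 and 4 in the low areas. Its interval ran from −1.44 to 1.79, so a difference in either direction was not detectable at this depth.

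These intervals set what could be detected. Over the 31 genes the 95% interval reached a median of 0.94 to either side of the log2 fold change, and 23 intervals reached past −1 while 7 reached past 1. A halving could therefore be set aside for only 8 of the genes, *Acadl* among them.

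**Figure D4:**
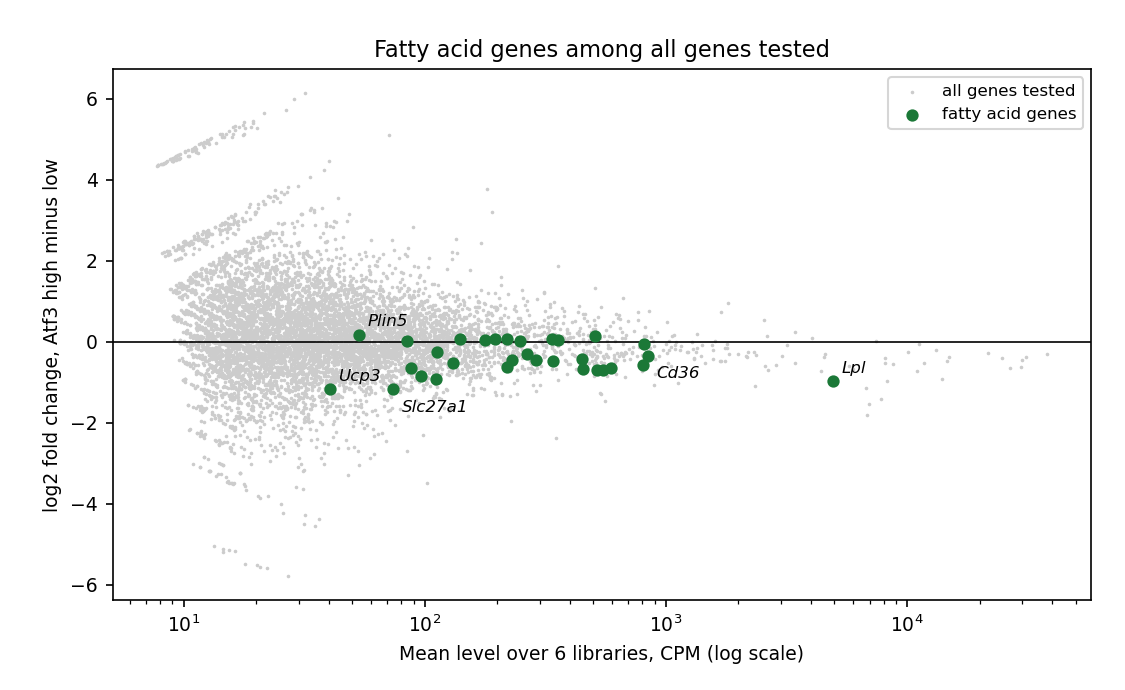
Log2 fold change (Atf3 high minus Atf3 low) against the mean level over 6 libraries (CPM, log axis) for the 7665 genes tested (grey) and the 31 fatty acid genes (green). The green points lie between −1.16 and 0.18, inside the grey cloud, and 59.8% of the 425 genes at or above 247 CPM are below 0.

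The sum of the set was also set beside the cardiomyocyte markers. Summed over the 33 genes with counts, the level was 10193, 8219 and 16126 CPM in Atf3 high areas and 18356, 14424 and 18495 CPM in the low areas. Atf3 high replicate 3, which held the most cardiomyocyte marker RNA of its group, lay among the Atf3 low libraries. Relative to those markers the genes other than *Lpl* were not lower: per 100 marker UMIs there were 29.7, 26.2 and 24.3 of their UMIs in Atf3 high areas and 21.9, 18.8 and 18.7 in the low areas. That ratio had no overlap, with the higher values in Atf3 high, but it rests in part on *Myh6*. With *Myh6* left out of the markers it was 32.3, 29.3 and 27.0 against 28.1, 22.9 and 23.3, and the groups overlapped. *Actc1*, also lower in Atf3 high (−1.14), stayed among the markers. For *Lpl* the ratio was 12.2, 7.28 and 11.7 in Atf3 high areas and 15.8, 9.90 and 11.3 in the low areas, which interleaved.

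**Figure D5:**
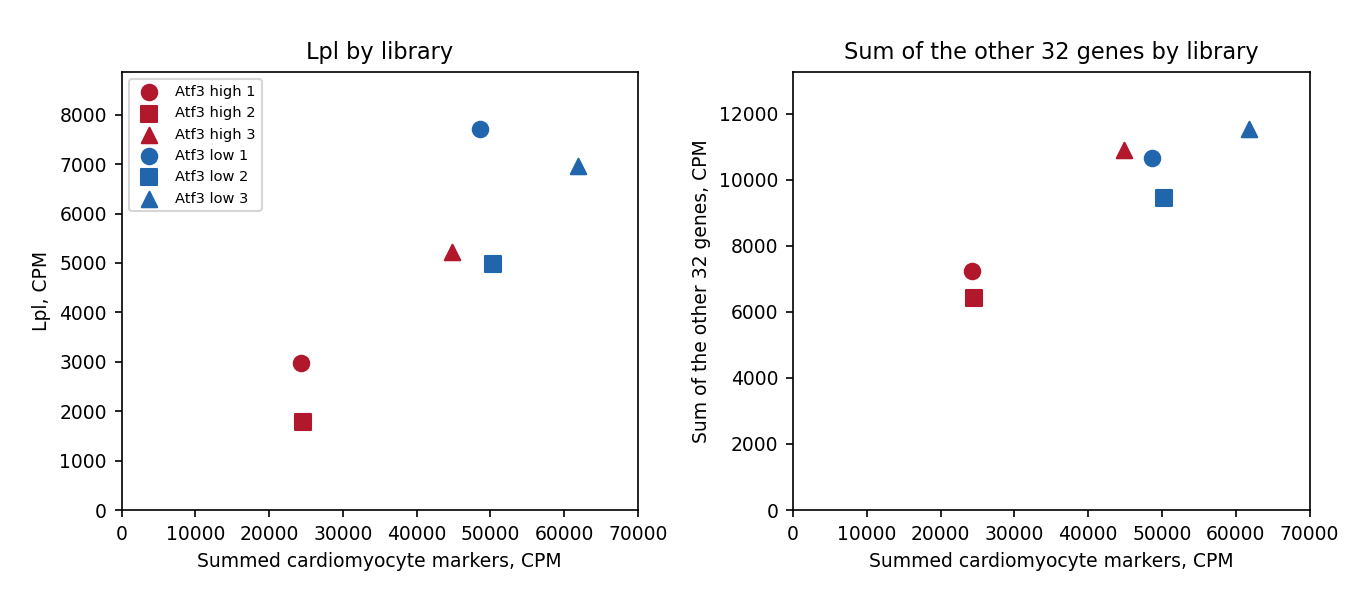
Both axes are CPM from 0, with the summed cardiomyocyte markers on the x axis and *Lpl* (left) or the sum of the other 32 counted genes (right) on the y axis, 1 point per library. Atf3 high replicates 1 and 2 have the lowest values on both axes, and replicate 3 lies near the Atf3 low libraries.

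Around the set, 54 other fatty acid genes (lipolysis control, triglyceride synthesis, malonyl-CoA synthesis, peroxisomal oxidation and ketone use) were read as a list. It was chosen with earlier results of these data known. Of the 54, 40 were tested, 21 below 0 and 19 above (median −0.13), with 0 called after adjustment. At an unadjusted p under 0.05, 2 of 40 were lower and 2 higher, beside 2.24% and 3.55% of all genes tested. Groups were apart in 1 lower and 2 higher, beside 3.89% and 7.07% of all genes. *Angptl4*, a secreted inhibitor of lipoprotein lipase, had 7, 17 and 6 UMIs in Atf3 high areas and 2, 1 and 0 in the low areas. Every Atf3 high library was above every Atf3 low one (3.16, SE 1.07, edgeR unadjusted p = 0.00498, adjusted p = 0.649), and without Atf3 high replicate 2 the fold change was 1.82 (edgeR adjusted p = 1). *Vldlr*, a receptor of triglyceride-rich lipoproteins, had 17, 17 and 50 UMIs against 58, 21 and 48. Its groups overlapped (−1.21, SE 0.49, edgeR unadjusted p = 0.0183, adjusted p = 0.738), and without Atf3 low replicate 3 it gave −0.74. *Lpin1*, a phosphatidate phosphatase of triglyceride synthesis and a PPAR alpha coactivator, had 23, 6 and 31 UMIs against 56, 28 and 18. Scaled to CPM, its groups were apart, at 117, 72.4 and 144 against 377, 234 and 245 (−1.32, SE 0.49, edgeR unadjusted p = 0.0103, adjusted p = 0.649). *Acaca*, the cytosolic acetyl-CoA carboxylase of fatty acid synthesis, had 4, 4 and 6 UMIs against 0, 1 and 0 (3.05, SE 1.48, edgeR unadjusted p = 0.0455, adjusted p = 0.854). With so few Atf3 low UMIs for *Angptl4* and *Acaca*, their fitted folds depend on the prior count.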

How the data were processed

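Counts of UMIs for each gene were deposited for every library, without normalization. The authors made CEL-seq2 libraries, sequenced them on a NovaSeq and mapped reads to GRCm38. The submitters' processing notes name HISAT2 (version 2.1.0), UMI-tools (version 1.0.0) and featureCounts (version 1.6.4). The annotation release and the handling of reads that map to several places are not given in the sources used here, and both bear on genes with near-identical copies. Libraries were grouped by their labels. Replicates are described as biological, but p-values measure the spread between these libraries only. Counts of libraries within a group differed by more than sampling noise (chi-square divided by its degrees of freedom was 3.55 to 5.07).

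Genes with at least 10 UMIs over 6 libraries were scaled by TMM and entered the quasi-likelihood test (glmQLFTest) without covariates, in edgeR 4.0.16 under R 4.3.3. The members and gene lists were chosen with earlier results of these data known. Every member is reported. Values of every library are given for members with an unadjusted p under 0.05 or groups apart and for the most abundant of each step, and other fatty acid genes are named at an unadjusted p under 0.05. Values of further members were added after they were seen. The GC box was also chosen after its windows were seen. Copies were found with BLAST+ (version 2.17.0; at least 95% identity over 200 bases), and positions come from GENCODE M21, which held 99.93% of the identifiers. DESeq2 (version 1.42.0), limma-voom (version 3.58.1), other scalings and filters, a replicate block, thinning and leaving out each library were alternatives. The tests were checked on simulated data. A planned share of *Cpt1b* in *Cpt1* UMIs could not be computed.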

Additional observations from a re-analysis of the deposited data

How the results depend on the processing

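Depth and replicate number limit these results: the shallowest library held 81117 UMIs, and a member at the median had an interval of ±0.94 on the log2 scale. Of the alternatives tried, the replicate block alone called a member: with it, 1 was called (*Lpl*, −1.09, edgeR adjusted p = 0.0329) and 5 were lower at an unadjusted p under 0.05 (*Lpl*, *Acot13*, *Hadhb*, *Acaa2* and *Ech1*), and calls over all genes went from 7 to 24. The labels do not say whether the numbers pair libraries. Atf3 high replicate 2 had 16 Y-linked UMIs and 0 of *Xist*, and Atf3 low replicate 2 had 1 and 13. These counts differ as between a male and a female, so the libraries numbered 2 do not pair by mouse. For numbers 1 and 3 it is not known. Deviations of same-numbered libraries correlated at 0.0851, 0.000876 and 0.0656. Replicates 1 and 3 correlated best with their own number, and Atf3 high replicate 2 did not. The fit without the block was therefore kept. Members lower at an unadjusted p under 0.05 numbered 2 with DESeq2 and 2 when each library was thinned to the shallowest, with *Acot13* added in both, and 0 to 4 with a library left out; members called after adjustment stayed at 0 in all of these. The 0 came without Atf3 high replicate 2 (*Lpl* at −0.69), 2 without Atf3 low replicate 2 (*Acsl1* added), and 4 without Atf3 high replicate 3 (*Mlycd*, *Acaa2* and *Ech1* added). With all 6 libraries 0 members were called after adjustment by edgeR or DESeq2, and 1 member had an unadjusted p under 0.05 with edgeR and 2 with DESeq2. The members' median ran from −0.68 without Atf3 high replicate 3 to −0.21 with library size scaling, and was −0.43 without *Lpl*, an alternative chosen after seeing the data. Library size scaling moved the median of all genes from 0.11 to 0.31 and the share of higher genes among those at an unadjusted p under 0.05 from 61.3% of 444 to 79.8% of 514, DESeq2 gave 51.0% of 249, voom 50.8% of 384 and the filterByExpr filter 50.4% of 119. DESeq2 called 12 genes in all.

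Of 31 members, 16 stayed lower under every alternative, and 15 changed sign in 47 of 437 values. None of the values of changed sign passed an adjusted p of 0.05. The largest in size was −1.15, for *Plin5* without Atf3 high replicate 3 (edgeR unadjusted p = 0.298). The cause of these changes was not tested. *Crat* gave −0.00375 with RLE size factors, −0.00111 with DESeq2 and −0.0079 with the replicate block. *Acadl* gave 0.15 with library size scaling and 0.0136 without a filter. *Acads* gave −0.0179 with RLE size factors, −0.0407 with DESeq2, −0.0645 with the block and −0.11 after thinning. *Hadh* gave −0.0483 with voom and −0.11 with the block, *Echs1* −0.0422 with the block and −0.0361 after thinning, *Decr1* −0.21 after thinning and *Plin5* −0.0475 with the block. *Pnpla2* gave −0.0088 with RLE size factors, −0.00568 with DESeq2, −0.00629 with voom and −0.0568 with the block. With a library left out the log2 fold change ran from −0.27 to 0.41 for *Acot2*, from −0.62 to 0.0508 for *Cpt2*, from −0.30 to 0.30 for *Crat*, from −1.70 to 0.077 for *Mlycd*, from −0.13 to 0.0494 for *Acadl*, from −0.89 to 0.55 for *Acads*, from −0.24 to 0.35 for *Hadha*, from −0.48 to 0.44 for *Hadh*, from −0.61 to 0.51 for *Echs1*, from −0.15 to 0.29 for *Eci1*, from −0.31 to 0.32 for *Decr1*, from −0.79 to 0.25 for *Etfa*, from −1.05 to 0.0401 for *Etfdh*, from −1.15 to 0.70 for *Plin5* and from −0.30 to 0.26 for *Pnpla2*. Among members that stayed lower, the range was −1.24 to −0.39 for *Slc25a20*, −2.51 to −0.44 for *Ucp3*, −0.91 to −0.23 for *Acacb*, −0.96 to −0.18 for *Acadm*, −1.27 to −0.41 for *Acaa2*, −0.97 to −0.17 for *Acat1*, −1.65 to −0.41 for *Ech1*, −0.76 to −0.28 for *Hadhb*, −0.54 to −0.17 for *Cd36* and −0.68 to −0.16 for *Dgat2*. Summing members with the UMIs of genes that share a near-identical stretch, chosen after seeing the data, changed no direction. Not all of these are copies of a whole gene. *Eci2* (67 UMIs) was summed with *Zfp445* (64 UMIs), a protein-coding gene matched over 271 bases only, so that sum mixes in another gene. The difference in the *Hadha* share was 11.4 percentage points from pooled UMIs and ran from 6.56 to 21.3 with a library left out. The difference in the *Etfa* share was −3.58 percentage points from pooled UMIs and ran from −5.08, without Atf3 low replicate 3, to 12.0 with a library left out. The filterByExpr filter left 28 members tested. *Acaca* gave no value without Atf3 high replicate 3. The share of *Cpt1b* was not run.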

Other observations

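Further marker lists gave the following values in the same comparison. Of 8 macrophage markers, 6 were tested, with a median log2 fold change of 0.07. Of 7 mural cell markers, 6 were tested, with a median of 0.61 and 1 lower at an unadjusted p under 0.05 by edgeR, beside 2.24% of all genes tested. *Hbb-bs*, the only erythrocyte marker tested of 5, had 8, 13 and 7 UMIs in Atf3 high areas and 19, 10 and 0 in the low areas (−0.12, SE 0.75).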
